A study of Mus musculus with 9 samples.

Results

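The simple epithelium keratins are the intermediate filament proteins of single-layered epithelia, and 5 of their genes were followed here: Krt8 and Krt7, which encode type II keratins, and Krt18, Krt19 and Krt20, which encode type I keratins. They were taken by symbol from an array table of mouse embryonic stem cells that measured 19938 genes through features with 1 gene symbol, and each was read by 1 feature. The genes were picked because their group levels in this table were already known, so their levels and group differences are given as a description, with no test. The samples were 3 null Eα, 3 null and 3 flox arrays. Null Eα cells lacked both alleles of β-catenin and stably expressed a fusion of E-cadherin with α-catenin, null cells lacked both alleles, and flox cells, the controls, had 1 deleted and 1 floxed allele. All 3 groups thus carried at least 1 deleted allele, came from a mixed S129S6-C57BL/6 background and were grown on gelatin with serum and leukaemia inhibitory factor. Nothing in the labels tells if replicate arrays came from separate lines or from cultures of a single line, so the spread between arrays may be that of cultures, and genotype and line cannot be told apart.

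Keratin filaments are built from pairs of 1 type I and 1 type II chain, and a chain without a partner is degraded. Krt8 and Krt18 are the first keratins made in the mouse embryo, where trophectoderm and endoderm use them, and Krt7, Krt19 and Krt20 join them in particular glands, ducts, urothelium and gut. The filaments are held at desmosomes and hemidesmosomes by plakin and plakoglobin family proteins, and E-cadherin junctions, which β-catenin and α-catenin join to actin, lie beside the desmosomes. β-Catenin also carries Wnt signals to genes bound by TCF/LEF factors.

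Of the 5 genes, 4 were matched by symbol to the RefSeq promoter table of mouse build GRCm38.p6, and Krt19 was not. Krt8 and Krt18 are neighbours on chromosome 15 with no measured gene between them, and Krt20 is on chromosome 11. Their promoters are shown to set the pair with the null peak of Krt8 and Krt18 beside Krt20, which was also highest in null and lies on another chromosome. Each runs 5′ to 3′ over 300 bases on the gene's strand, from 250 bases before the start to 50 after it, and capitals mark matches to the motifs searched. The Krt8 window is chr15:102004293-102004592 on the minus strand, the Krt18 window chr15:102027966-102028265 on the plus strand and the Krt20 window chr11:99438104-99438403 on the minus strand.
Krt8: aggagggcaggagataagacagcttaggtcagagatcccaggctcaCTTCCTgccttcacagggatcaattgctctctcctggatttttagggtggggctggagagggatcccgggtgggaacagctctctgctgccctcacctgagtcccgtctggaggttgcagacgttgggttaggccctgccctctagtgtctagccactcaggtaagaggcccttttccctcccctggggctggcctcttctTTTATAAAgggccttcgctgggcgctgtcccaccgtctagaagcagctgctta
Krt18: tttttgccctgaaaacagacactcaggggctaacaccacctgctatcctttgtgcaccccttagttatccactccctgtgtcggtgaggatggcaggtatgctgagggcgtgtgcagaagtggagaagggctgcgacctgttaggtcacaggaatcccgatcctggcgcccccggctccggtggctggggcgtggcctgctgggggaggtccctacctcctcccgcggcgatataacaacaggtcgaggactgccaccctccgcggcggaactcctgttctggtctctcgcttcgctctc
Krt20: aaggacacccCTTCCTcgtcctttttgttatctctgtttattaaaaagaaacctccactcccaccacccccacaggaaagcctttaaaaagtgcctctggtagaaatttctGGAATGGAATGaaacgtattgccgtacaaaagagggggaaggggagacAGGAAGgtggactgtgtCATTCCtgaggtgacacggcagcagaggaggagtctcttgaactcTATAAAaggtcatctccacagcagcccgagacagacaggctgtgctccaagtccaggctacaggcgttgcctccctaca

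The motifs, read on both strands, were TATAAA (the TATA box, in 13.6% of 32851 promoters of this length), GGGCGG (the GC box, 35.7%), TGANTCA (AP-1, 7.81%), GGAATG (TEAD, 14.7%), CTTTGA (the core of the TCF/LEF site, 16.0%) and AGGAAG (Ets type, 35.4%). The Krt8 window held 2 overlapping TATAAA matches, 1 on each strand, that make the run TTTATAAA, and 1 AGGAAG match. The 2 TATAAA matches begin at bases -3 and -1, so they lie at the annotated start. The Krt18 window held none of the 6. Krt20 had 1 TATAAA match beginning at base -29, 3 GGAATG matches, of which 2 share a base, and 2 AGGAAG matches. Krt7, whose window at chr15:101412153-101412452 on the plus strand is not printed, had 4 GGGCGG matches and 1 AGGAAG match. TGANTCA and CTTTGA were found in none of the 4 windows, which says only that these letters are not there.

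On the arrays, Krt8, Krt18 and Krt19 stood about 7-fold to 8-fold higher in null than in flox cells and were back near the flox level in null Eα cells. Krt20 was also highest in null, at a dim level, and Krt7 moved least. In all 5 genes the null arrays lay above every null Eα array and above every flox array. Values are log2 RMA intensities, so 1 unit is a doubling, and levels of different genes are not comparable on this scale. In a population of cells, a change in the number of keratin-positive cells and a change in RNA per cell cannot be told apart.

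Krt8, the type II partner of Krt18, measured 8.91, 8.72 and 9.0 on the null Eα arrays, 11.52, 11.38 and 11.68 on the null arrays, and 8.49, 8.55 and 8.35 on the flox arrays. The 3 groups did not overlap, with null highest, null Eα next and flox lowest. The null mean exceeded the flox mean by 3.06 ± 0.10 (SE), or 8.34-fold, which was place 61 among the differences of 19938 genes ranked from the highest. Null Eα minus null was -2.65 ± 0.10, place 11 from the lowest, and null Eα minus flox was 0.41 ± 0.10, which quantile normalization moved to 0.74. The gap between the lowest null Eα array and the highest flox array was 0.17, small beside the step to null.

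Krt18, the type I chain that pairs with Krt8, measured 7.56, 7.64 and 8.28 on the null Eα arrays, 10.70, 10.99 and 11.36 on the null arrays, and 8.13, 8.24 and 8.30 on the flox arrays. Null lay apart from both other groups, while null Eα and flox overlapped through null Eα replicate 3. The difference was 2.79 ± 0.20 between null and flox, 6.92-fold and place 80 from the highest. Between null Eα and null it was -3.19 ± 0.20, place 4 from the lowest, and between null Eα and flox -0.40 ± 0.20, which quantile normalization moved to -0.10. Krt8 and Krt18 thus shared the null peak, but relative to flox the mean of null Eα replicates 1 and 2 was 0.35 for Krt8 and -0.63 for Krt18.

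Krt19, a type I keratin of ducts and simple epithelia, measured 5.97, 5.74 and 7.88 on the null Eα arrays, 9.56, 9.48 and 9.99 on the null arrays, and 6.72, 6.89 and 6.97 on the flox arrays. Null was again apart from both groups, and null Eα straddled flox, with replicates 1 and 2 below every flox array and replicate 3 above every flox array. Null exceeded flox by 2.82 ± 0.45, 7.05-fold and place 76 from the highest, and null Eα minus null was -3.15 ± 0.45, place 5 from the lowest. Null Eα minus flox, -0.33 ± 0.45, was smaller than its error. The SD of the null Eα arrays was 1.17, against 0.28 for null and 0.13 for flox.

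Krt20, a type I keratin of gut and urothelium, was dim, at 4.46, 4.48 and 4.18 on the null Eα arrays, 5.70, 5.11 and 5.89 on the null arrays, and 4.48, 4.47 and 4.60 on the flox arrays. These lay between percentiles 19.1 and 22.8 of all features of an array in null Eα, 35.0 and 48.4 in null, and 26.4 and 28.7 in flox. At such levels array background narrows differences, so a ratio of RNA may be larger than the one measured. Null minus flox was 1.05 ± 0.17 (2.07-fold) and null Eα minus null -1.19 ± 0.17, while null Eα and flox overlapped (-0.14 ± 0.17).

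Krt7, the type II keratin of ducts and glands, measured 6.62, 6.63 and 6.54 on the null Eα arrays, 6.83, 6.79 and 6.82 on the null arrays, and 6.28, 6.31 and 6.22 on the flox arrays. The groups did not overlap, but the whole range spanned little: null minus flox was 0.54 ± 0.07 (1.46-fold) and null Eα minus null -0.22 ± 0.07. Krt7 was the 1 member whose null Eα mean sat nearer to null than to flox, 60.3% of the way from flox to null. For Krt8 that figure was 13.4%, and for Krt18, Krt19 and Krt20 it was below 0.

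**Figure D1:**
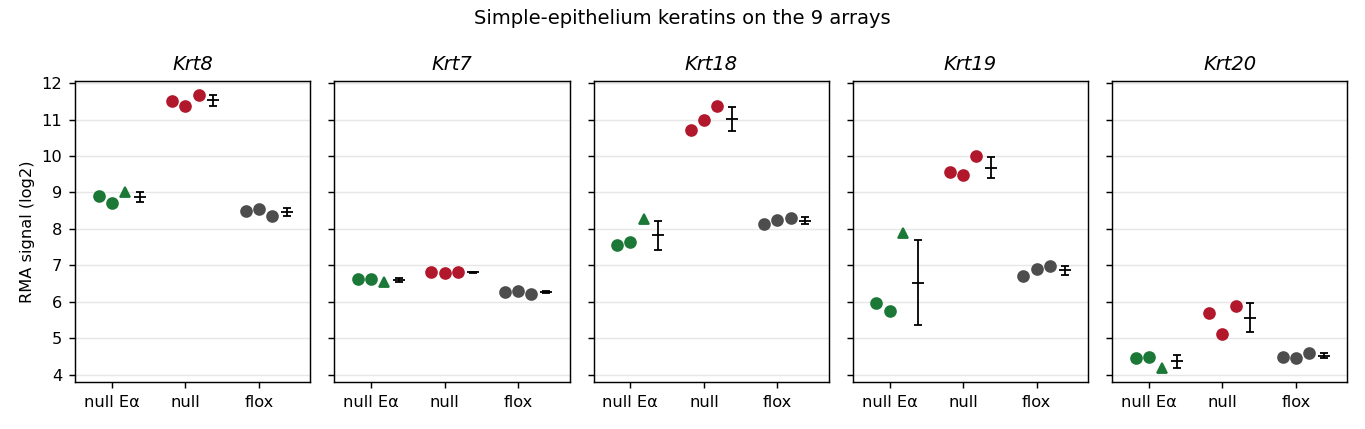
Log2 RMA intensity of Krt8, Krt7, Krt18, Krt19 and Krt20 on each array, with null Eα, null and flox from left to right in each panel, points for arrays, a triangle for null Eα replicate 3 and black marks for mean ± SD. Null arrays sit highest in every panel, and null Eα replicate 3 stands apart for Krt19, at 7.88 against 5.97 and 5.74 for the other null Eα arrays.

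Set against all genes, no overlap between groups was common. All 5 keratins were higher in null than in flox without overlap, where 35.5% of all genes were. All 5 were lower in null Eα than in null without overlap, where 21.0% of all genes were, and Krt8 and Krt7 were higher in null Eα than in flox without overlap, where 35.9% were. The keratins were chosen on these same values, so nothing is read from their counts. The comparisons share arrays: the null arrays set both the null minus flox and the null Eα minus null values, so their opposite signs are not independent of each other.

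Null Eα replicate 3 differed from the other null Eα arrays. Krt19 on this array was 1.02 above the flox mean, with replicates 1 and 2 at -0.89 and -1.12 from it. Krt18 was 0.05 above the flox mean in replicate 3, with -0.67 and -0.59 in replicates 1 and 2. Krt8 showed the same order in less degree, with 0.53 in replicate 3 and 0.44 and 0.26 in replicates 1 and 2. Krt7 and Krt20 did not, at 0.28 against 0.35 and 0.36 for Krt7, and at -0.33 against -0.06 and -0.03 for Krt20. Over all features, replicate 3 correlated with the null arrays at 0.978 to 0.980, and replicates 1 and 2 at 0.964 to 0.970. It also correlated with the flox arrays at 0.951 to 0.956, where replicates 1 and 2 had 0.945 to 0.954, and most with its own group, at 0.986 to 0.987. Without replicate 3, the null Eα minus null difference became -3.82 for Krt19, -3.42 for Krt18, -2.71 for Krt8, -1.10 for Krt20 and -0.19 for Krt7. The part of that array's state in the keratin values was not tested.

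The labelled cell type was checked with 9 defining genes of mouse embryonic stem cells. Their mean level per array was 10.17 to 10.41 in null Eα, 8.38 to 8.71 in null and 10.62 to 10.66 in flox. Relative to flox, 8 of 9 were lower and 1 higher in null, and relative to null, 8 were higher and 1 lower in null Eα (limma, Benjamini-Hochberg adjusted p under 0.05 over all genes). The exception in both was Lin28a, at 0.44 in null minus flox and -0.30 in null Eα minus null. Esrrb, a pluripotency factor, lay at 9.71 to 10.23 in null Eα, 4.70 to 5.30 in null and 10.54 to 10.62 in flox, so in null it sat under the median of an array's features. Dppa4 behaved alike, at 8.85 to 9.50 in null Eα, 5.26 to 5.65 in null and 9.29 to 9.35 in flox. Pou5f1, named after its values were seen, stayed bright, at 11.35, 11.42 and 11.31 in null Eα, 10.81, 10.82 and 10.75 in null, and 11.46, 11.42 and 11.46 in flox. The group with the highest keratin levels was thus also the one with the lowest stem cell genes, and the part of cell state in the keratin levels was not tested.

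The deleted gene itself, Ctnnb1, which encodes β-catenin, averaged 10.23 in null Eα, 10.51 in null and 11.16 in flox, and was lower in null than in flox by 0.65 log2 units (difference -0.65 ± 0.07, limma adjusted p = 2.82e-05). Its feature still gave signal in null cells. Probes outside the deleted exons would not report the deletion, but where the probes of this feature lie was not tested. Many other genes moved as well: at an adjusted p under 0.05 limma called 55.2% of all genes in null against flox, 31.7% in null Eα against null and 63.7% in null Eα against flox. By direction, 26.5% were called higher and 28.7% lower in null against flox, 13.6% higher and 18.1% lower in null Eα against null, and 32.1% higher and 31.6% lower in null Eα against flox. In those comparisons, in the order given, the median difference over all genes was 0.06, 0.05 and 0.07, and over dim genes 0.13, 0.11 and 0.24. The shift of dim genes bears on Krt20 and on most of the other keratins.

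The other keratin genes had no null peak of the size seen in Krt8, Krt18, Krt19 and Krt20. Krt88, at 0.53 in null against flox, came near Krt7, at 0.54, but did not share its peak. It differed by 0.07 in null Eα against null, which was not called, where Krt7 was at -0.22. All 47 measured lie, with the 5 members, in the cluster of chromosome 15, which holds the type II genes and Krt18, or the type I cluster of chromosome 11. Against flox, 19 were called higher in null and 2 lower by limma (44.7% called, 55.2% over all genes), with a median of 0.24, and the range of all 47 was -1.92 to 0.53, so none was 2-fold higher, as 5.03% of all genes were. After quantile normalization 8 were called higher, with a median of 0.10 over the 47, and leaving out flox replicate 3 or null replicate 2 gave 10 and 12. In null Eα against null, 5 were called higher and none lower (10.6% called, 31.7% over all genes), with a median of 0.13, and the 5 were Krt17, Krt42, Krt75, Krt73 and Krt25. The last 3 were named after their values were seen, and differed by 0.41, 0.33 and 0.29. Without null Eα replicate 3, 13 were called higher in this comparison. In null Eα against flox 29 were called higher and 1 lower, near the share over all genes (63.8% called, 63.7% over all genes), and 17 and 0 after quantile normalization. On every array of a group, 5 of the 47 lay under the lower quartile of features in null Eα, 9 in null and 13 in flox.

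Krt17 and Krt42 moved opposite to the simple keratins. Krt17, a type I keratin of skin appendages, measured 6.99, 7.12 and 6.68 in null Eα, 5.71, 5.71 and 5.23 in null, and 7.53, 7.48 and 7.42 in flox. It was 1.92 log2 units lower in null than in flox (-1.92 ± 0.15, limma adjusted p = 1.46e-06) and higher in null Eα than in null by 1.38 ± 0.15 (adjusted p = 8.91e-05). Its null Eα minus flox difference, -0.54 (adjusted p = 0.0085), was no longer called under quantile normalization (-0.35) or with each chromosome centred (-0.36). Krt42, which lies next to Krt17 and is close to it in sequence, measured 7.80, 7.91 and 7.29 in null Eα, 6.56, 6.54 and 6.27 in null, and 7.56, 7.73 and 7.67 in flox. Its differences were -1.20 ± 0.15 between null and flox (adjusted p = 6.02e-05) and 1.21 ± 0.15 between null Eα and null (adjusted p = 0.000245). Signal shared between the probes of these 2 paralogs was not tested.

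**Figure D2:**
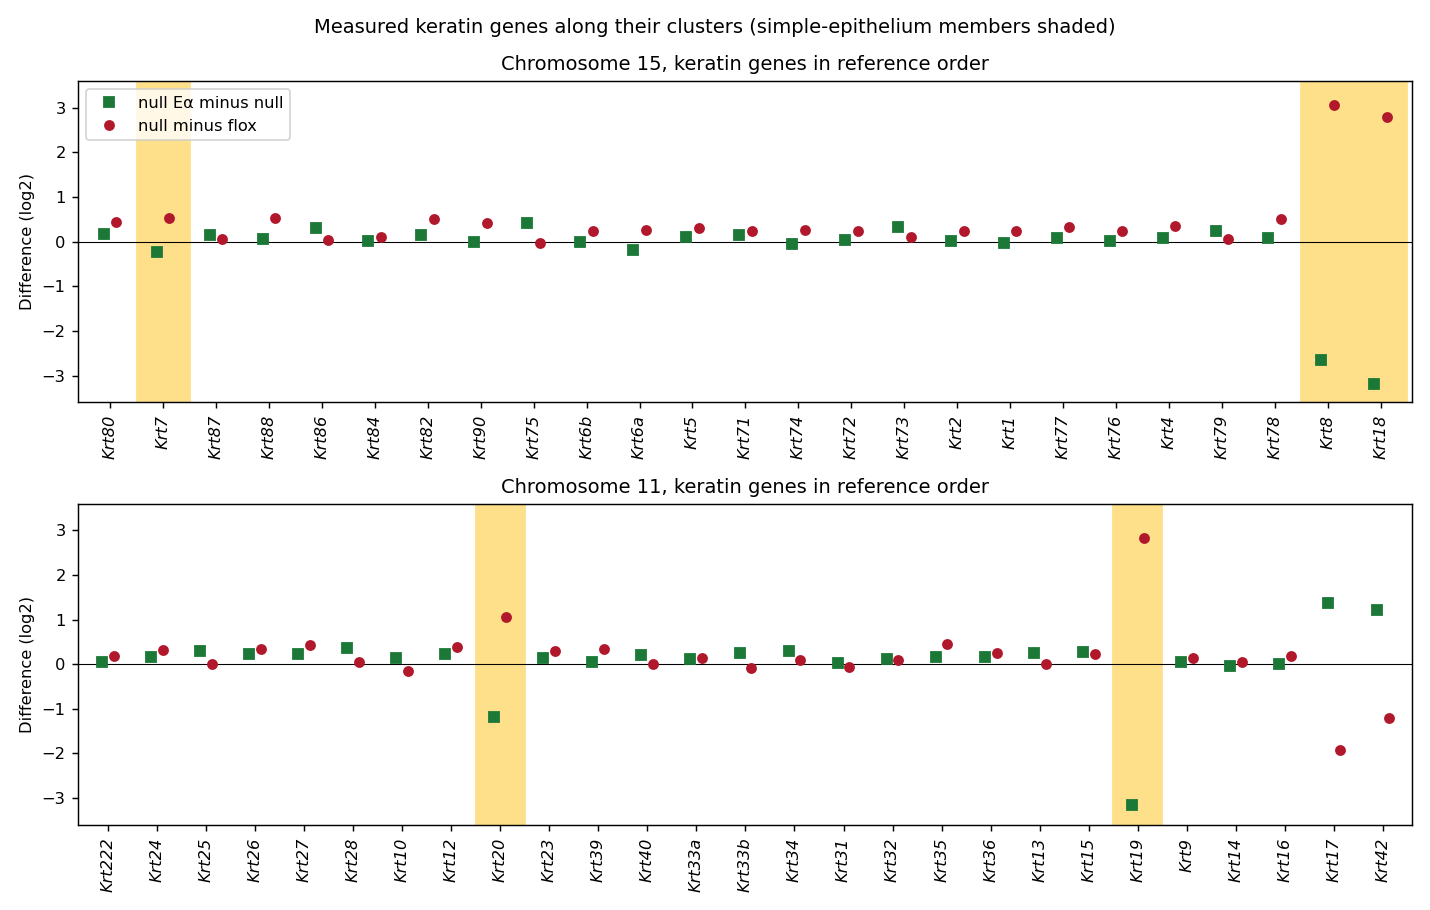
Difference in log2 intensity for every measured keratin in gene order along the chromosome 15 and chromosome 11 clusters, null Eα minus null and null minus flox, with the 5 members shaded. Krt8, Krt18, Krt19 and Krt20 stand out upward in null minus flox and downward in null Eα minus null, and Krt17 and Krt42 do the reverse.

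In null against flox and null Eα against null, genes beside Krt8, Krt18, Krt19 and Krt20 on the chromosomes showed smaller differences than those members. Those beside Krt7 reached past it in null against flox and had the opposite sign in null Eα against null. In null Eα against flox, neighbours reached past these members, from -0.60 to 0.88 around Krt8 and Krt18. The range there was -0.54 to 0.63 around Krt19 and -0.02 to 0.65 around Krt20. Around Krt8 and Krt18 the 4 nearest measured genes on each side ranged from -0.60 for Eif4b to 0.96 for Igfbp6 in null against flox, and from -0.21 to 0.23 in null Eα against null. Krt78, next to Krt8, differed by 0.50 and 0.09 in those comparisons. Eif4b, a translation initiation factor gene on the other side, measured 10.77, 10.84 and 10.94 in null Eα, 10.70, 10.84 and 10.79 in null, and 11.36, 11.37 and 11.37 in flox. It differed by -0.60 and 0.08, limma adjusted p = 5.24e-05 and 0.439. Around Krt7, which itself differed by 0.54 and -0.22, the neighbours ranged from -0.28 to 0.71 in null against flox and from 0.01 to 0.32 in null Eα against null, and around Krt20 from -0.15 to 0.62. Around Krt19 they ranged from -1.92, for Krt17, to 0.46, so Krt17 lay apart from the other neighbours. Brighter genes of chromosome 11 had a median of -0.31 in null Eα against null and -0.56 in null Eα against flox, against -0.06 and -0.25 for brighter genes of the whole array. Centring each chromosome turned the null Eα minus flox difference of Krt20 to 0.04, and left the members' other directions as they were.

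Among genes that anchor keratin filaments at desmosomes and hemidesmosomes, 10 of 22 measured were called higher in null than in flox and 2 lower (54.5% called, 55.2% over all genes), with a median of 0.21. In null Eα against null, 2 were called higher and 8 lower (45.5% called, 31.7% over all genes), with a median of -0.04. Dsc2, a desmosomal cadherin, measured 5.57, 5.64 and 5.96 in null Eα, 8.48, 7.90 and 8.53 in null, and 4.94, 4.89 and 4.93 in flox. It rose in null by 3.38 ± 0.16 over flox (adjusted p = 5.92e-08) and was lower in null Eα than in null (-2.58 ± 0.16, adjusted p = 3.20e-06), the order of Krt8. Dsp, the desmoplakin that ties keratin to the desmosome, measured 7.11, 7.18 and 8.16 in null Eα, 9.45, 9.30 and 9.56 in null, and 6.99, 6.88 and 7.14 in flox. Its differences were 2.43 ± 0.23 and -1.95 ± 0.23, both called, and null Eα replicate 3 was again the highest of its group.

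Plec, the plectin that links keratins to hemidesmosomes and other filaments, kept more of its rise, at 8.63, 8.25 and 8.39 in null Eα, 8.96, 8.85 and 8.94 in null, and 7.10, 6.83 and 6.89 in flox. Null minus flox was 1.98 ± 0.11 (adjusted p = 1.52e-07) and null Eα minus null -0.49 ± 0.11 (adjusted p = 0.00654). Pkp2, a desmosomal plaque protein, differed by 1.12 ± 0.17 and -0.79 ± 0.17, both called. The 2 anchor genes called lower in null were Jup, the plakoglobin that is a close relative of β-catenin (-0.71 ± 0.10), and Pkp4 (-0.73 ± 0.07). Jup was lower again in null Eα than in null, by 0.54 log2 units (-0.54 ± 0.10, adjusted p = 0.00306). The 2 called higher in null Eα than in null were Evpl (0.37), whose call was lost in 7 alternatives, and Dst (0.47 ± 0.09). Jup, Pkp4, Evpl and Dst were named after their values were seen.

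**Figure D3:**
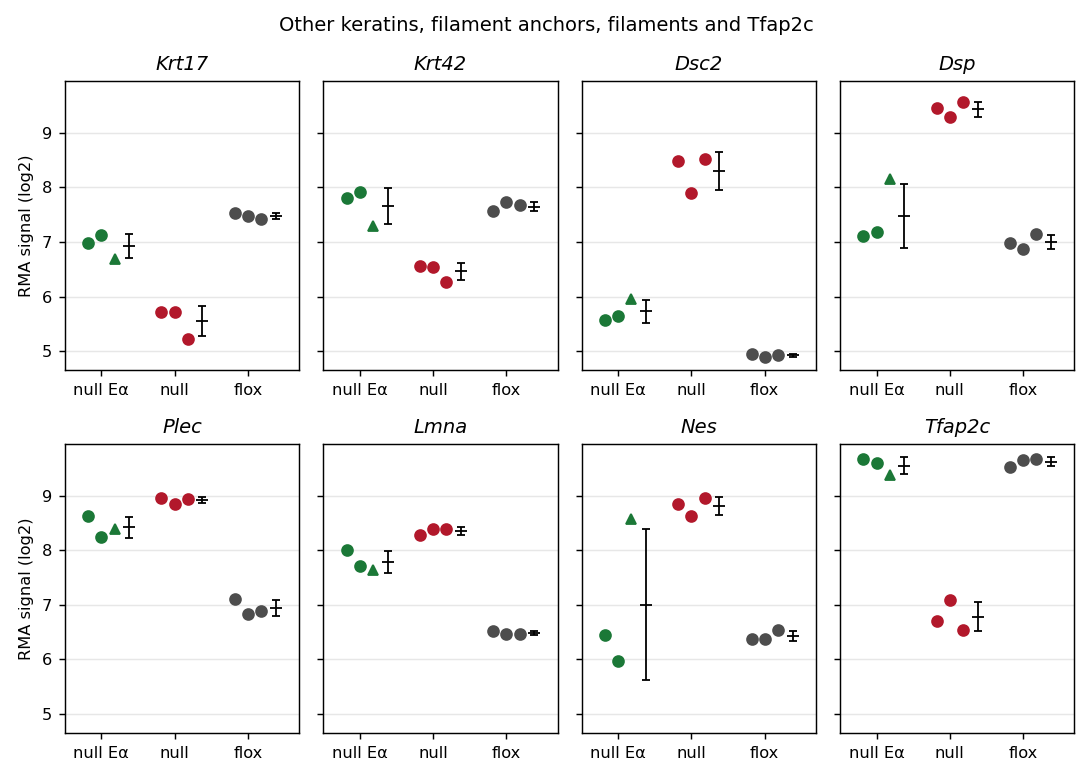
Log2 RMA intensity of Krt17, Krt42, Dsc2, Dsp, Plec, Lmna, Nes and Tfap2c on each array, with null Eα, null and flox from left to right in each panel, points for arrays, a triangle for null Eα replicate 3 and black marks for mean ± SD. Dsc2 and Dsp are highest on the null arrays, as Krt8 is, while Plec remains high in null Eα at 8.25 to 8.63, against 8.85 to 8.96 in null and 6.83 to 7.10 in flox.

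Intermediate filament genes outside the keratins moved both ways. Of 16, 5 were called higher and 6 lower in null against flox (68.8% called, 55.2% over all genes, median 0.05), and 3 each way in null Eα against null (37.5% called, 31.7% over all genes). Nes, the nestin of neural progenitors, had a keratin-like order, at 6.45, 5.97 and 8.58 in null Eα, 8.85, 8.62 and 8.96 in null, and 6.37, 6.37 and 6.53 in flox. It was 2.38 ± 0.51 higher in null than in flox (adjusted p = 0.0026). Null Eα replicate 3 lay beside the null arrays, and the null Eα minus null call (-1.81 ± 0.51, adjusted p = 0.0223) was lost in 6 alternatives. Lmna, a nuclear lamin, differed by 1.86 ± 0.10 and -0.56 ± 0.10, both called. Ina, a neuronal filament gene, went the other way, by -2.76 ± 0.29 and 1.29 ± 0.29, both called. Vim, the vimentin of mesenchymal and cultured cells, named after its values were seen, was higher in null than in flox by 0.58 ± 0.08.

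Genes of proteins that bind, modify or cleave simple keratins were called about as often as all genes in null against flox. Of 18 measured, 6 were called higher and 4 lower in null against flox (55.6% called, 55.2% over all genes, median 0.05), and 8 were called lower and none higher in null Eα against null (44.4% called, 31.7% over all genes, median -0.10). Dnajb6, a chaperone known to bind Krt18, measured 7.97, 8.36 and 8.16 in null Eα, 7.80, 7.86 and 7.95 in null, and 6.49, 6.68 and 6.63 in flox. It was 1.27 ± 0.10 higher in null than in flox (adjusted p = 2.49e-06) and 0.30 higher in null Eα than in null, which missed the threshold (adjusted p = 0.0512). Mapk14, the p38 kinase that phosphorylates Krt8, was lower in null than in flox (-1.27 ± 0.10, adjusted p = 1.49e-06). Casp6, a protease that cleaves Krt18, measured 6.64, 6.49 and 7.93 in null Eα, 8.12, 8.12 and 8.23 in null, and 8.21, 8.20 and 8.27 in flox. In null Eα it lay -1.13 ± 0.29 from null (adjusted p = 0.015), and leaving out null replicate 3, null Eα replicate 1 or null Eα replicate 2 ended this call.

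Regulators of the epithelial state divided evenly, with 9 of 27 called higher and 9 lower in null against flox (66.7% called, 55.2% over all genes, median -0.06) and 9 higher and 7 lower in null Eα against null (59.3% called, 31.7% over all genes, median 0.15). Elf3, an Ets factor of simple epithelia, measured 7.61, 7.41 and 7.31 in null Eα, 6.05, 5.95 and 6.04 in null, and 8.87, 9.06 and 9.06 in flox, a fall of 2.99 in null (-2.99 ± 0.09, adjusted p = 4.25e-09). Tfap2c, an AP-2 factor of trophectoderm, measured 9.68, 9.60 and 9.38 in null Eα, 6.71, 7.08 and 6.54 in null, and 9.53, 9.65 and 9.68 in flox. Its null Eα minus null difference was 2.78 ± 0.13 (adjusted p = 5.01e-07), and its null Eα and flox arrays overlapped. Grhl3, a grainyhead factor of surface epithelium, differed by -1.67 ± 0.08 and 1.33 ± 0.08, and Klf6 by 1.84 ± 0.10 and -1.21 ± 0.10, all called.

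AP-1 is a factor known to act on Krt18 through its first intron, and 7 of its genes, named after their values were seen, were in the regulator list. Jun, Fos, Fosb and Fosl2 were called higher in null than in flox and lower in null Eα than in null, with Fosl2 at 1.75 and -0.61. Junb (0.69 and 0.05) and Fosl1 (0.36 and 0.21) passed only the first of these tests, and Jund (0.10 and -0.29) neither. The null minus flox call of Fosl1 was lost in 5 alternatives and the null Eα minus null call of Fosl2 in 3 (without null replicate 1, null replicate 3 or null Eα replicate 2), while Jund passed 1 of the tests in 4 alternatives. Jun measured 7.67, 7.33 and 7.98 in null Eα, 9.26, 9.40 and 9.41 in null, and 6.82, 7.09 and 7.17 in flox, which is 2.33 ± 0.15 for null minus flox and -1.70 ± 0.15 for null Eα minus null (adjusted p = 5.02e-07 and 3.34e-05). Fosb measured 6.95, 7.04 and 8.01 in null Eα, 9.87, 9.27 and 8.66 in null, and 5.82, 5.84 and 5.78 in flox. Fos measured 6.69, 6.49 and 7.54 in null Eα, 8.67, 8.64 and 7.71 in null, and 5.25, 5.09 and 5.24 in flox. Null Eα minus flox was 0.63 for Jun, 1.52 for Fosb and 1.71 for Fos. The part of AP-1 in the Krt18 level was not tested. Klf4 and Klf5, factors of epithelia that stem cells also use, ran against the keratins, with null minus flox at -1.20 ± 0.26 and -1.69 ± 0.14 and null Eα minus null at 1.77 ± 0.26 and 1.31 ± 0.14.

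Other genes of simple epithelia gave no single direction: 10 of 23 measured were called higher and 6 lower in null against flox (69.6% called, 55.2% over all genes, median 0.21), and 5 higher and 12 lower in null Eα against null (73.9% called, 31.7% over all genes, median -0.35). Anxa3 was highest in null, as the keratins were, by 3.75 ± 0.36 and -1.57 ± 0.36, as was Cgn, the tight junction protein cingulin, by 1.77 ± 0.12 and -1.04 ± 0.12. In null Eα they stayed above flox, by 2.17 ± 0.36 for Anxa3 and 0.73 ± 0.12 for Cgn. Rab25, an epithelial trafficking GTPase, had the reverse, by -2.06 ± 0.17 and 1.41 ± 0.17, as did Cldn4, a claudin, by -1.23 ± 0.13 and 1.34 ± 0.13. Ocln, the tight junction protein occludin, did not pass the test between null and flox (0.07, adjusted p = 0.737) and was lower in null Eα than in null (-1.64 ± 0.16, adjusted p = 4.72e-05). Except for the Ocln value between null and flox, each of these differences was called.

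**Figure D4:**
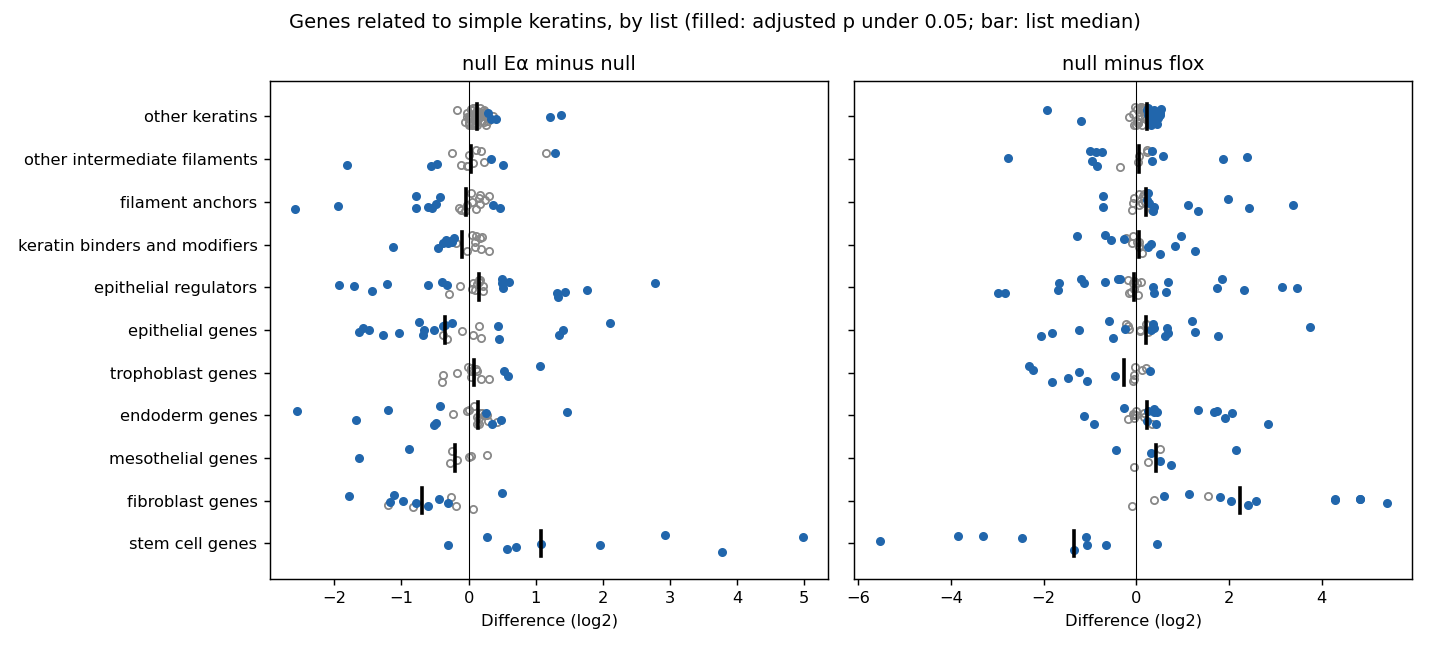
Difference in log2 intensity of the genes of each list, null Eα minus null and null minus flox, where points are genes (filled where limma called them) and bars are list medians. The fibroblast list is shifted most in null minus flox, with a median of 2.23, and the stem cell list is lowest, with a median of -1.34.

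Lists of cell types that could hold keratins were called in null against flox at shares not far from the 55.2% of all genes: 57.1% of trophoblast, 62.5% of endoderm and 62.5% of mesothelial genes. Of 14 measured trophoblast genes, 1 was called higher in null than in flox (Cdx2, by 0.29, a call lost in 5 alternatives) and 7 lower, and their mean level per array was 5.67 to 5.70 in null Eα, 5.50 to 5.58 in null and 6.26 to 6.30 in flox. Eomes, a trophoblast stem cell factor, was lower in null than in flox (-2.32 ± 0.10). Of 24 endoderm genes, 12 were called higher and 3 lower, with mean levels of 6.66 to 6.70 in null Eα, 6.75 to 6.80 in null and 6.23 to 6.33 in flox. Dab2, an endocytic adaptor of that lineage, differed by 1.92 between null and flox and by -1.68 between null Eα and null, and Lama1, a laminin chain, by -1.13 and 1.46. Lrp2, also of this list, differed by 2.83 and -2.56. Of the endoderm genes, 4 were called higher and 6 lower in null Eα against null (41.7% called, 31.7% over all genes). Lamb1, Col4a2 and Col4a1, also of this list, were 2.06, 1.68 and 1.32 higher in null than in flox. In null Eα they stayed 1.54, 1.25 and 0.84 above flox, where Dab2 and Lrp2 were at 0.24 and 0.27. Sparc differed by -0.17 between null and flox, not called, and by -1.37 between null Eα and flox. The lineage factors Gata4, Gata6, Sox17 and Hnf4a were at -0.27, -0.06, -0.05 and -0.08 in null against flox. Of other lineage factors in the list, Foxa2 was called higher, at 0.42, and Sox7 was not called, at 0.16. Of 8 mesothelial genes, 4 were called higher and 1 lower (Upk3b, -0.43), with mean levels of 5.51 to 5.86 in null Eα, 5.85 to 6.14 in null and 5.45 to 5.57 in flox. Gpm6a, 1 of the 4, differed by 2.16 ± 0.39, and by -1.64 ± 0.39 in null Eα against null, both called. In null Eα against null, 2 mesothelial genes were called lower and 0 higher. On the null Eα arrays Gpm6a measured 4.97, 4.79 and 6.52. Cdx2, Upk3b and the lineage factors given here were named after their values were seen.

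Fibroblast genes moved furthest: 11 of 14 were called higher in null than in flox and none lower (78.6% called, 55.2% over all genes, median 2.23). Their mean level per array was 7.13 to 7.34 in null Eα, 7.66 to 8.24 in null and 5.20 to 5.37 in flox. They thus stayed well above flox in null Eα, with a median of 1.61. In that comparison Krt8 and Krt7 were at 0.41 and 0.33, and Krt18, Krt19 and Krt20 at -0.40, -0.33 and -0.14. On every array of a group, 2 of the 14 lay under the lower quartile of features in null Eα, 1 in null and 4 in flox. Lox, a collagen cross-linking enzyme, lay at 8.98 to 9.35 in null Eα, 9.98 to 10.33 in null and 4.59 to 4.75 in flox. The part of any of these cell types in the keratin differences was not tested.

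The genes whose pattern was nearest to a member's were found by the root mean square difference of gene-centred log2 values over the 9 arrays, where 0 is an identical pattern. Closest to Krt8 were Flnc, a filamin (0.206), Dsc2 (0.226), Met, the hepatocyte growth factor receptor (0.272) and Gfra1 (0.328), ahead of Krt18 (0.399) and Krt19 (0.601). Flnc measured 7.53, 7.12 and 7.50 in null Eα, 9.69, 9.49 and 9.97 in null, and 6.57, 6.54 and 6.43 in flox. Closest to Krt18 were Herc6 (0.199), Cd59a (0.340), Igfbp3 (0.369) and Them4 (0.443), with Krt19 at 0.386. Closest to Krt19 were Igfbp3 (0.253), Lrp2 (0.305), Serpinb9 (0.379) and Herc6 (0.381).

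Among the genes nearest to Krt19, which the measure picks for a like spread over the arrays, Igfbp3, a secreted binder of insulin-like growth factors, measured 7.34, 7.44 and 9.13 in null Eα, 10.27, 10.51 and 11.16 in null, and 7.99, 8.13 and 8.06 in flox. Lrp2, the endocytic receptor megalin, measured 7.89, 7.26 and 9.61 in null Eα, 10.62, 10.61 and 11.22 in null, and 8.0, 7.90 and 8.06 in flox. In both, null Eα replicate 3 lay above every flox array, while in Herc6 it was 5.50, within the flox range of 5.32 to 5.67. Closest to Krt20 were Pmp22 (0.177), Ust (0.187), Myo1c (0.194) and Zfp711 (0.196), and Krt7, whose group means spanned 0.54, was not matched. Repeating the search on the 8 arrays without null Eα replicate 3, chosen after seeing the data, gave back 1 of 4 genes for Krt8, 2 of 4 for Krt18, 3 of 4 for Krt19 and none of 4 for Krt20.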

How the data were processed

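Gene expression was measured on 9 Affymetrix whole-transcript arrays, 3 each of null Eα, null and flox cells. The deposited table holds log2 values, made by the authors with RMA (version not given) per the submitters' processing notes, 1 per feature and array. Whether all arrays were normalized together is not given in the sources used here. Values were used as deposited: of 35556 features, 21789 had 1 symbol in the platform annotation, and the feature with the highest mean stood for a gene, leaving 19938 genes. The test across all genes was limma 3.58.1 (R 4.3.3), run as lmFit then eBayes with 1 mean per group and 1 variance per gene over the 9 arrays, followed by Benjamini-Hochberg adjustment over all genes and a threshold of 0.05. The fit was tested on simulated data. The number of arrays limits the precision.

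The members and the lists were chosen with earlier results of these data known. Beside 47 other keratins, 187 genes in 10 lists were looked up and 175 were measured, and the rest were not analysed here. Named genes were the members and Ctnnb1. For each list they were the 4 called and at least 2-fold changed genes with the smallest p in null against flox and the 2 in null Eα against null. Also named were the other keratins called and at least 2-fold changed, the neighbours, and the 4 genes nearest in pattern to each member that spanned at least 1 log2 unit. Another 25, and Foxa2 and Sox7, were picked once their values were known. Alternatives were quantile normalization, centring of arrays or chromosomes, leaving out dim genes, testing all features, a trend with robust prior, pairwise fits, a replicate block and leaving out each array.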

Additional observations from a re-analysis of the deposited data

How the results depend on the processing

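Of the 17 alternatives, leaving out null Eα replicate 3 moved Krt19 most, and quantile normalization moved Krt8: it became 3.25 in null against flox, 0.74 in null Eα against flox and -2.50 in null Eα against null, and Krt18 became -0.10 in null Eα against flox. Centring on each array's median gave Krt7 0.25 in null Eα against flox and -0.26 in null Eα against null, and centring on each chromosome gave Krt7 0.49 in null against flox, 0.24 in null Eα against flox and -0.29 in null Eα against null. The small null Eα minus flox values were the unstable ones: Krt20 turned to 0.04 with each chromosome centred, and Krt19 ranged from -1.01 to 0.06 when single arrays were left out, turning positive without null Eα replicate 2 and reaching the low end without replicate 3. Over the same single-array alternatives, Krt18 ranged from -0.63 to -0.27, Krt20 from -0.20 to -0.05 and Krt8 from 0.35 to 0.49. The null minus flox and null Eα minus null values kept their direction in every member under all alternatives run. Alternatives that change only the variance or the genes tested leave differences as they are, so these could not turn a direction.

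Among other keratins in null against flox, 8 were called higher after quantile normalization and 2 with dim genes left out, and 10 to 21 with single arrays left out (10 without flox replicate 3, 12 without null replicate 2). In null Eα against flox, 17 were called higher after quantile normalization and 4 with dim genes left out, and 0 were called lower after quantile normalization or with chromosomes centred. In null Eα against null, 3 were called higher with dim genes left out, and 4 to 13 with single arrays left out (13 without null Eα replicate 3). Testing all 35556 features instead of genes called 17661 features in null against flox, 9357 of them higher, and leaving out dim genes called 3157 genes higher. In null Eα against flox, 19938 of the 35556 features were called, a count of features that happens to equal the number of genes, 10996 of them higher, and 8065 genes were called with dim genes left out, 2415 of them higher. Same-numbered arrays of different groups had correlated deviations of -0.035 to 0.258, over 0.1 in 3 of 9 pairs. Arrays with different numbers had -0.196 to 0.142, over 0.1 in 1 of 18 pairs. The labels do not say if equal numbers share a batch, and this was not tested. With the replicate number as a block, 11298 genes were called in null against flox, 12935 in null Eα against flox and 6602 in null Eα against null, with 19, 32 and 7 other keratins higher. Each number occurs once in each group, so this block cannot move the members' differences. What depends on dim genes, Krt20 and most other keratins, is limited by signal near the array's floor.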
